A study of Homo sapiens with 6 samples.

Results

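The transporters described here are the 39 protein-coding genes of the solute carrier families SLC1, SLC7, SLC36, SLC38 and SLC43, without SLC7A11, together with SLC3A1 and SLC3A2, the heavy chains that carry several SLC7 proteins to the cell surface. A rule on symbol and gene type picks them out of 58037 gene rows, of which 19950 are protein coding. RNA was sequenced from HepaRG, a human hepatic tumour line that differentiates in culture into hepatocyte-like and biliary-like cells. The study asked how loading such cells with fat changes genes of drug metabolism and transport. Cells of passages 15 to 18 were expanded for 14 days, differentiated for 14 days and held for 5 days in a basal medium containing insulin and hydrocortisone. The 3 control libraries came from cells given bovine serum albumin at 0.02% for 72 h, and the 3 fatty acid libraries from cells given 0.5 mM palmitate and oleate, mixed 1 to 2 and bound to albumin, also for 72 h. Both arms therefore share the line, the differentiation, the hormones and the albumin. Nothing in the labels ties the replicates to separate cultures, so the p-values measure the spread between these libraries, which may be technical.

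Amino acids cross the plasma membrane through carriers that differ in substrate and driving force. Sodium-coupled system A carriers accumulate small neutral amino acids, system N carriers move glutamine together with sodium against a proton and can run either way, and exchangers swap one amino acid for another, so that what one carrier concentrates another can trade for leucine or arginine. In liver, periportal hepatocytes take up alanine and glutamine for urea and glucose synthesis, perivenous cells make glutamine, and several carrier genes are targets of ATF4, a factor made when amino acids run short or the endoplasmic reticulum is stressed.

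The values are FPKM, fragment counts scaled for gene length and for library size, so levels can be compared between genes. Log2 fold changes are differences of group means of log2(FPKM + 0.5), fatty acid minus control, and understate the change of low genes. A gene was tested where its mean over the 6 libraries was at least 0.5 FPKM, and was called where limma's p-value, adjusted by Benjamini and Hochberg over all 14661 genes tested, was under 0.05. The libraries held 6331372 to 11821423 reads in the control group and 8364570 to 15941353 reads in the fatty acid group, and mitochondrial genes took 12.23% to 14.96% and 9.15% to 11.91% of them. The 24 hepatocyte markers, all tested, summed to 23565 to 23847 FPKM in the controls and 19431 to 19880 FPKM with fatty acid. Of these markers 15 were called lower and 5 were called higher. Over all genes tested, to be set beside this and the marker counts below, 4.68% were called lower and 8.22% higher. Albumin, ALB, stood at 11688 to 12320 against 6826 to 7439 FPKM, and the other 23 summed to 11497 to 11928 against 12328 to 12605 FPKM. This second sum holds the 5 called higher, the abundant FGA, FGB, FGG, HP and SERPINA1. The rest of the 15 called lower are in it too, among them RBP4 (mean 2002 against 1096 FPKM), APOC3 (816 against 319) and TTR (280 against 116). Of the 15 biliary markers 8 were tested and 1 was called (CD24, lower), and EPCAM was listed at 0. Of the 14 mesenchymal markers 10 were tested and 1 was called (LUM, higher), with THY1 at 0, and of the 17 immune and endothelial markers 3 were tested and 1 was called (KDR, lower), with CD3E, NKG7, CDH5 and CLEC4G at 0. Their summed levels were 459 to 534 against 437 to 454 FPKM, 104 to 113 against 121 to 129 FPKM, and 51.7 to 56 against 40.6 to 42.3 FPKM. The last sum was mostly KDR, at a mean of 40.7 against 25.6 FPKM, and CD14, at 10.6 against 12.7 FPKM. Of the 17 immune and endothelial markers 14 averaged under 0.5 FPKM, so this sum does not show the level of a cell type. The part of these shifts in the transporter changes was not tested, and in bulk RNA fewer cells of a type cannot be told apart from less RNA per cell.

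With fatty acid, transporters of several substrate classes were higher and 2 were lower. Of 39 genes 24 were tested, and 7 were called higher and 2 lower by limma, where 8.22% of all genes tested were called higher and 4.68% lower. The 7 that rose were the neutral exchangers SLC1A4 and SLC1A5, the system A carrier SLC38A1, the arginine and lysine carriers SLC7A1 and SLC7A2, the glutamate carrier SLC1A3 and the leucine carrier SLC43A2. The 2 that fell were the system N glutamine carrier SLC38A3, which stood at 0.34 of its control level, and the glutamate carrier SLC1A1. Groups did not overlap for 14 of the 24 (9 higher and 5 lower), and for 37.1% of all genes tested. The median log2 fold change was 0.13 over the 24 transporters and 0.04 over all genes, and 18 transporters had a positive and 6 a negative value, against 57.2% positive among all genes. All 9 called genes kept their direction under every scaling, filter, pseudocount and left-out library tried, but not their calls. Leaving out fatty acid replicate 1 left 3 higher and 1 lower, and leaving out replicate 2 left 2 higher and 1 lower. The lower count was also 1 without control replicate 2 or fatty acid replicate 3.

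**Figure D1:**
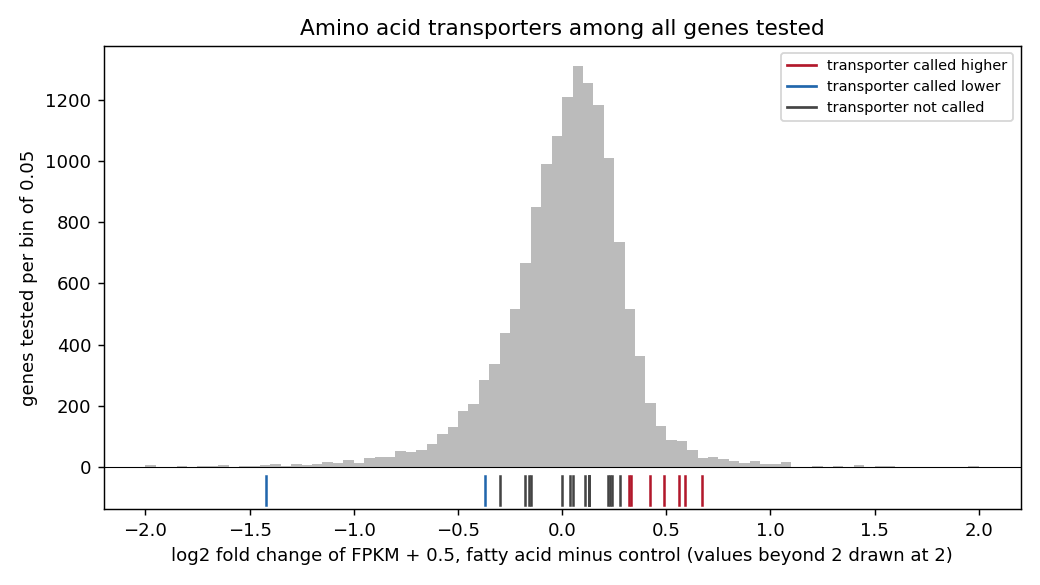
Histogram of the log2 fold change (fatty acid minus control, FPKM + 0.5) of the 14661 genes tested, in bins of 0.05, with the 24 tested transporters as coloured ticks. SLC38A3, at -1.42, lies far out on the lower side, and the 7 called higher lie between 0.32 and 0.67.

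Promoter sequences are shown first for the genes that rose, because 5 of them carry the same short element. ATF4, paired with a C/EBP protein, binds composite sites whose core is TGATGNAA. This string was searched on both strands of windows from 250 bases before to 50 bases after RefSeq transcript starts (GRCh38.p14). Not every start had a window. Of the 39 genes 31 had a window and 8 had none, among the latter the fallen SLC38A3 and the risen SLC7A2. Of the 7 that rose, 6 had a window. The match stood in 5 of these 6 genes (5 of their 14 windows), in SLC1A3, SLC1A4, SLC1A5, SLC38A1 and SLC7A1. It stood in 1 of the 25 other transporters with a window (1 of 39 windows), SLC3A2. By call, this was 1 of 14 not called, 0 of 1 called lower and 0 of 10 not tested. Over all genes with a window, whether tested here or not, the match stood in 1217 of 27305 (4.46%), and in 3.62% of all 35116 windows. These include genes not expressed in the libraries. The sixth gene, SLC43A2, had no match. The element was chosen after the calls were seen, so these counts are a description without a test, and a string match is no evidence that a factor binds there.

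Capitals mark the match, and each line runs 5′ to 3′ on the strand of its gene. Letters that read TTGCATCA or TTACATCA are the element on the opposite strand. The excerpts lie at chr5:36596338-36596395 (plus strand), chr2:64989332-64989419 (plus), chr19:46784884-46784971 (minus), chr12:46266493-46266580 (minus), chr13:29595659-29595741 (minus) and, for the uncalled SLC3A2, chr11:62881719-62881748 (plus).
SLC1A3: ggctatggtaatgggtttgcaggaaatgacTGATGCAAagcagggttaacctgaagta
SLC1A4: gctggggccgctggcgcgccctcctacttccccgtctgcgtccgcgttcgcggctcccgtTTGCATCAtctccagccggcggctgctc
SLC1A5: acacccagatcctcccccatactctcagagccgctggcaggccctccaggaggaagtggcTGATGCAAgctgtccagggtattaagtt
SLC38A1: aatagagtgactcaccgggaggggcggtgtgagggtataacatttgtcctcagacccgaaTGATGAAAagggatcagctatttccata
SLC7A1: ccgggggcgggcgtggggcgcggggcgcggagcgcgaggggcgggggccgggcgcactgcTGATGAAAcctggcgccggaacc
SLC3A2: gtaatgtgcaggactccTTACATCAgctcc

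The match began 220 bases before the start of its transcript in SLC1A3, 97 before in SLC1A5, 7 before in SLC1A4 and 4 before in SLC38A1. In SLC7A1 it began 7 bases, and in SLC3A2 37 bases, after the start. Only in SLC7A1 was that start the 5′ end of the gene as deposited. In SLC1A3 it lay 9767 bases before that end. It lay inside the gene by 3780 bases in SLC1A5, 3501 in SLC38A1, 922 in SLC1A4 and 25597 in SLC3A2. Which starts these cells use was not tested. In the GENCODE annotation the SLC1A3 site lay outside the gene, those of SLC1A4 and SLC38A1 in an intron of a longer transcript, and those of SLC1A5, SLC7A1 and SLC3A2 in the non-coding part of an exon. Of 3 other strings, the cyclic AMP response element TGACGTCA was in 2.25% of all genes with a window and in none of the 31 transporters. The E-box CACGTG was in 8.77% of genes and in 9 of the 31 transporters, 1 of them among the 6 risen genes with a window. The GC box GGGCGG was in 48.3% of genes and in 24 of the 31 transporters, including all 6 risen genes with a window.

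Among the sodium-coupled glutamine and alanine carriers, 1 system A gene rose and 1 system N gene fell. SLC38A1 (SNAT1), a system A carrier for alanine, serine and glutamine, lies on chromosome 12 at 46183063 to 46270017 (GRCh38, minus strand). It measured 19.4, 22.5 and 20 FPKM in the controls and 32.6, 32.3 and 29.1 FPKM with fatty acid. All treated libraries lay above all controls, and the mean rose from 20.6 ± 1.65 to 31.3 ± 1.9 FPKM (SD, n = 3 libraries each), a log2 fold change of 0.59 ± 0.07 (SE, limma adjusted p = 0.00402). This call stood under all 16 alternatives.

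SLC38A2 (SNAT2), the system A carrier that cells regulate by amino acid supply, had the highest level of the 39 genes in both groups. It measured 72.6, 84.2 and 80.2 FPKM in the controls and 93.1, 92.5 and 90.8 FPKM with fatty acid. The groups did not overlap, but the difference of 0.22 ± 0.06 on the log2 scale missed the threshold (limma adjusted p = 0.0558). It passed without control replicate 2 (limma adjusted p = 0.0424), with a filter of 2 FPKM (0.0387), after rescaling to TPM (0.0164) and in voom on the reads recovered from the FPKM (0.0113).

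SLC38A4 (SNAT4), a carrier of neutral and cationic amino acids typical of hepatocytes, measured 29.6, 33.6 and 30.4 FPKM in the controls and 28.1, 27.8 and 27.6 FPKM with fatty acid. Its groups did not overlap either, in the opposite sense to its neighbours, and the difference of -0.16 ± 0.06 was not called (limma adjusted p = 0.119). The 3 system A genes stand in a row on chromosome 12, with 88.2 kb and no annotated row between SLC38A1 and SLC38A2, and 392 kb and no protein-coding gene between SLC38A2 and SLC38A4. Their summed level was 130.8 ± 9.36 FPKM in the controls and 151.3 ± 3.32 FPKM with fatty acid, a ratio of 1.16.

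SLC38A3 (SNAT3), the main system N carrier of hepatocytes, which moves glutamine, histidine and asparagine, had the largest change of the tested transporters. It lies on chromosome 3 at 50205246 to 50221486 (plus strand). It measured 10.2, 7.04 and 9.23 FPKM in the controls and 2.44, 3.21 and 3.29 FPKM with fatty acid. The highest treated library was below the lowest control. The mean fell from 8.84 ± 1.63 to 2.98 ± 0.469 FPKM (SD, n = 3 each), 2.97-fold lower, with a log2 fold change of -1.42 ± 0.15 (95% interval -1.77 to -1.06, limma adjusted p = 0.0019). The call stood under all 16 alternatives, with adjusted p from 5.58e-07 to 0.0124. Of the 24 hepatocyte markers 15 were called lower and 5 higher in the same libraries (4.68% and 8.22% over all genes tested). The part of these markers in this fall was not tested. SLC38A5 (SNAT5), the other system N gene, had 9 reads in the controls and 1 with fatty acid and was not tested. Within the summed FPKM of the 39 genes, SLC38A3 went from 2.47% ± 0.449 to 0.764% ± 0.129 and SLC38A1 from 5.77% ± 0.489 to 8.01% ± 0.338.

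**Figure D2:**
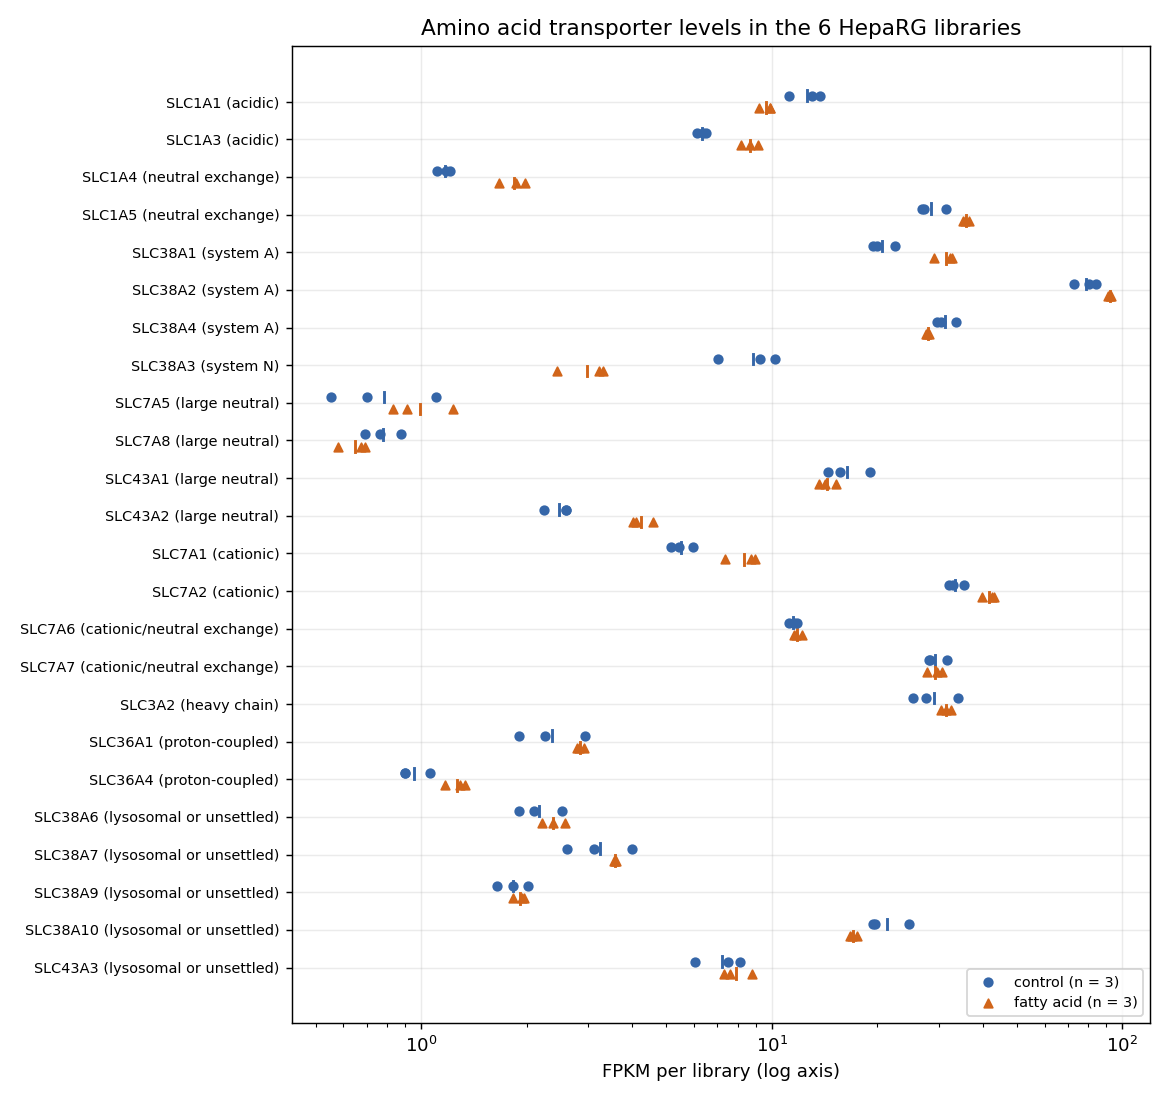
FPKM per library on a log axis for the tested transporters, grouped by substrate class (circles, 3 controls; triangles, 3 fatty acid libraries). The triangles of SLC38A3 sit to the left of its circles, at 2.44 to 3.29 against 7.04 to 10.2 FPKM, and those of SLC38A1 and SLC43A2 to the right.

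Both neutral amino acid exchangers of the SLC1 family rose. SLC1A5 (ASCT2), which exchanges glutamine, serine and other neutral amino acids, lies on chromosome 19 at 46774883 to 46788594 (minus strand). It measured 31.5, 27.2 and 26.9 FPKM in the controls and 35.6, 36.5 and 35.1 FPKM with fatty acid. The treated libraries were tightly grouped above the controls, and the mean rose from 28.5 ± 2.57 to 35.7 ± 0.711 FPKM, a log2 fold change of 0.33 ± 0.07 (limma adjusted p = 0.0262). Its call was lost without control replicate 2 (limma adjusted p = 0.0592) or 3 (0.0704), without any 1 fatty acid library (0.101, 0.109 and 0.0672 for replicates 1, 2 and 3), when low genes were not filtered (0.0584) and without the intensity trend (0.0636).

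SLC1A4 (ASCT1), an exchanger of alanine, serine and cysteine, lies on chromosome 2 at 64988477 to 65023865 (plus strand) and was much less abundant. It measured 1.11, 1.21 and 1.18 FPKM in the controls and 1.67, 1.86 and 1.98 FPKM with fatty acid. The groups were well apart, with means of 1.17 ± 0.0507 and 1.84 ± 0.156 FPKM, a ratio of 1.57, and a log2 fold change of 0.49 ± 0.11 (limma adjusted p = 0.0289). The call was lost without control replicate 1 (limma adjusted p = 0.0537) or 3 (0.0685), without any 1 fatty acid library (0.0783, 0.112 and 0.0898 for replicates 1, 2 and 3), when low genes were not filtered (0.081) and with the replicate block (0.0547). The sum of the 2 exchangers was 29.7 ± 2.52 FPKM in the controls and 37.6 ± 0.694 FPKM with fatty acid.

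The 2 tested carriers of arginine, lysine and ornithine, system y+, also rose together. SLC7A1 (CAT1), the widely expressed member, lies on chromosome 13 at 29509410 to 29595688 (minus strand). It measured 5.42, 5.96 and 5.17 FPKM in the controls and 8.73, 8.97 and 7.36 FPKM with fatty acid, without overlap. The mean rose from 5.52 ± 0.401 to 8.36 ± 0.867 FPKM, a log2 fold change of 0.56 ± 0.09 (limma adjusted p = 0.0115). The call was lost without fatty acid replicate 1 (limma adjusted p = 0.0626) or 2 (0.0602).

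SLC7A2 (CAT2), of which 1 splice form is the low-affinity arginine carrier of liver, lies on chromosome 8 at 17497088 to 17570573 (plus strand). It was the second most abundant transporter in both groups. It measured 32.9, 35.3 and 32 FPKM in the controls and 42.9, 42.4 and 39.8 FPKM with fatty acid, again without overlap. The mean rose from 33.4 ± 1.67 to 41.7 ± 1.66 FPKM (log2 fold change 0.32 ± 0.06, limma adjusted p = 0.0159), and the call was lost without fatty acid replicate 1 (limma adjusted p = 0.0836) or 2 (0.0793). The table gives 1 value per gene, so splice forms were not separated. The third carrier of the class, SLC7A3, had 1 read in all. The summed level of the class went from 38.9 ± 2.05 to 50 ± 2.51 FPKM, a ratio of 1.29.

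The 2 tested glutamate carriers moved in opposite directions. SLC1A1 (EAAT3), which takes up glutamate, aspartate and cysteine, lies on chromosome 9 at 4490444 to 4587469 (plus strand). It measured 13, 13.7 and 11.2 FPKM in the controls and 9.18, 9.86 and 9.87 FPKM with fatty acid. No treated library reached the lowest control, and the mean fell from 12.6 ± 1.31 to 9.64 ± 0.394 FPKM, a log2 fold change of -0.37 ± 0.08 (limma adjusted p = 0.0319). The call was lost without control replicate 1 (limma adjusted p = 0.0616) or 2 (0.0659), without any 1 fatty acid library (0.125, 0.103 and 0.0738 for replicates 1, 2 and 3), when low genes were not filtered (0.0713), without the intensity trend (0.0634) and after rescaling to TPM, where the difference was -0.24 (0.125).

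SLC1A3 (EAAT1), best known as the glutamate carrier of astrocytes, lies on chromosome 5 at 36606355 to 36688334 (plus strand). It measured 6.5, 6.38 and 6.12 FPKM in the controls and 8.19, 9.16 and 8.65 FPKM with fatty acid. Both groups were narrow and apart, with means of 6.33 ± 0.195 and 8.66 ± 0.486 FPKM and a log2 fold change of 0.42 ± 0.07 (limma adjusted p = 0.0094). The call was lost without fatty acid replicate 2 (limma adjusted p = 0.054). With one up and the other down, the summed level of the 6 acidic carriers was 19 ± 1.48 FPKM in the controls and 18.3 ± 0.86 FPKM with fatty acid. Of the others in the class, SLC1A2 had 6 reads in the controls and 14 with fatty acid, SLC1A6 2 and 2, SLC1A7 0 and 1, and SLC7A13 was listed at 0.

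Of the 4 carriers of leucine and other large neutral amino acids, 1 was called, SLC43A2. SLC43A2 (LAT4), which lets branched-chain amino acids and phenylalanine through without exchange, lies on chromosome 17 at 1569267 to 1628886 (minus strand). It measured 2.58, 2.58 and 2.24 FPKM in the controls and 4.57, 4.02 and 4.11 FPKM with fatty acid. The groups were far apart, and the mean rose from 2.46 ± 0.194 to 4.23 ± 0.294 FPKM, 1.72-fold, with a log2 fold change of 0.67 ± 0.09 (limma adjusted p = 0.00474), which stood under all 16 alternatives.

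Its relative SLC43A1 (LAT3), the most abundant gene of the class, measured 19, 15.7 and 14.5 FPKM in the controls and 14.2, 15.2 and 13.6 FPKM with fatty acid. The groups overlapped and the difference of -0.18 ± 0.10 was not called (limma adjusted p = 0.273). SLC7A5 (LAT1), the leucine exchanger of growing cells, stood at 0.786 ± 0.286 and 0.992 ± 0.213 FPKM (0.23 ± 0.20, limma adjusted p = 0.476), a value that is uncertain because reads shared with its pseudogene copies SLC7A5P1 and SLC7A5P2, both listed at 0, could be lost. SLC7A8 (LAT2) stood at 0.777 ± 0.0921 and 0.648 ± 0.0604 FPKM (-0.15 ± 0.15, limma adjusted p = 0.521). The class summed to 20.4 ± 2.86 FPKM in the controls and 20.2 ± 0.898 FPKM with fatty acid.

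**Figure D3:**
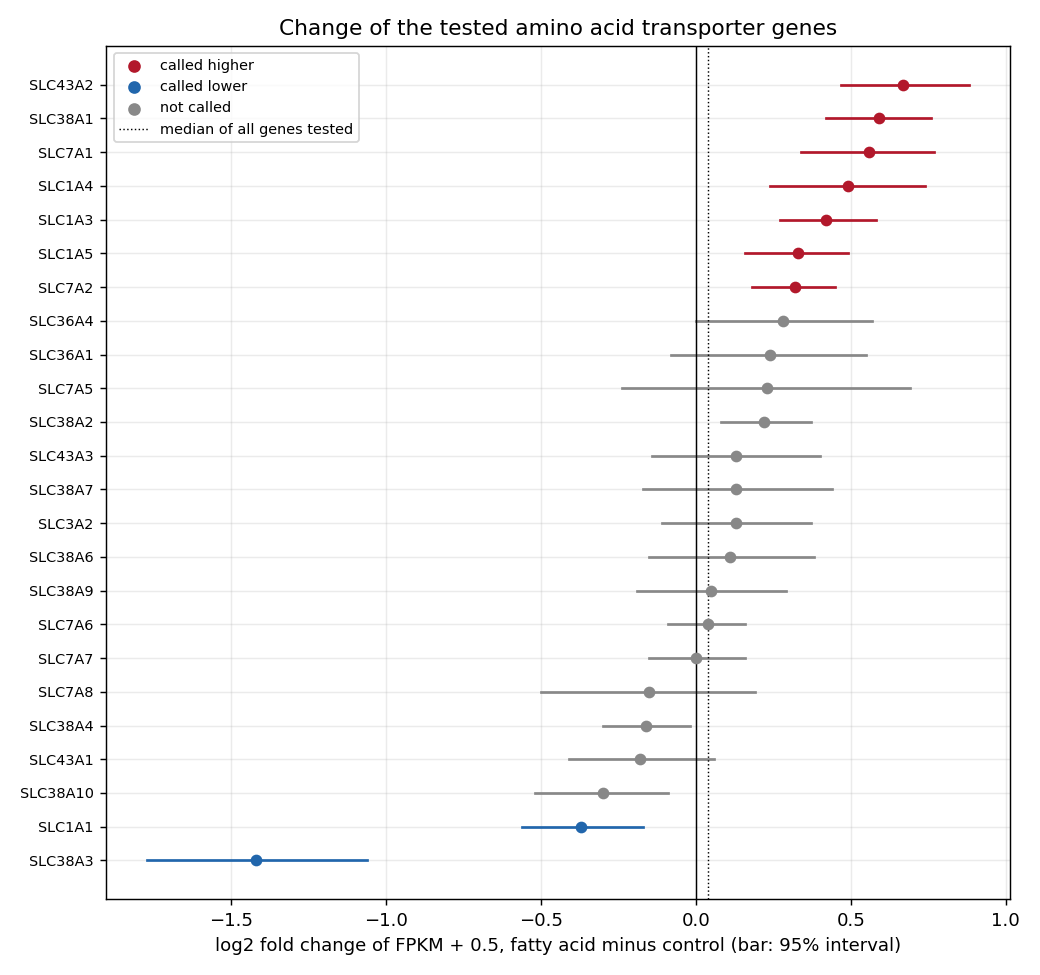
Log2 fold change of FPKM + 0.5 (fatty acid minus control) of each tested transporter, with its 95% interval from limma; red, called higher; blue, called lower; grey, not called; dotted line, median of all genes tested. The interval of SLC38A3, -1.77 to -1.06, lies apart from all others, and that of SLC7A7 runs from -0.15 to 0.16.

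Neither of the 2 tested exchangers that pair a cationic with a neutral amino acid was called. SLC7A7 (y+LAT1), the carrier mutated in lysinuric protein intolerance, measured 31.6, 28 and 28.3 FPKM in the controls and 30.5, 27.8 and 29.6 FPKM with fatty acid. The libraries of both groups were interleaved, and the log2 fold change was 0.00 ± 0.07, with a 95% interval from -0.15 to 0.16 (limma adjusted p = 0.989). SLC7A6 (y+LAT2) measured 11.6, 11.2 and 11.8 FPKM in the controls and 11.6, 11.7 and 12.2 FPKM with fatty acid, a difference of 0.04 ± 0.06 with an interval from -0.09 to 0.16 (limma adjusted p = 0.695). It shares 17321 bases with SLC7A6OS on the opposite strand.

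SLC7A7, SLC7A6, SLC7A5 and SLC7A8 all need the heavy chain SLC3A2 (4F2hc, CD98) at the surface. The 4 light chains summed to 42.4 ± 2.39 FPKM in the controls and 42.8 ± 1.16 FPKM with fatty acid. SLC3A2 measured 34, 25.2 and 27.6 FPKM in the controls and 31.3, 32.5 and 30.4 FPKM with fatty acid. Control replicate 1 lay above all the treated libraries and the other 2 controls below them. The difference was 0.13 ± 0.10 (limma adjusted p = 0.444), and without control replicate 1 it was called (limma adjusted p = 0.0427).

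The second heavy chain pair, SLC3A1 (rBAT) with SLC7A9, forms the cystine and arginine carrier of kidney and gut that is mutated in cystinuria. Both were below the filter. SLC3A1 had 79 reads in the controls and 55 with fatty acid, a ratio of 0.488 after adjustment for depth (95% exact interval 0.34 to 0.698), and its libraries did not overlap. SLC7A9 had 43 and 33 reads, a ratio of 0.538 (0.331 to 0.867). The intervals cover counting error only, and with no filter both had a limma adjusted p of 0.299. SLC3A1 shares 5214 bases with PREPL on the opposite strand, which averaged 10.2 FPKM.

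None of the proton-coupled or lysosomal carriers, nor those of unsettled function, was called. SLC36A1 (PAT1), a proton-coupled exporter of small amino acids from lysosomes, stood at 2.37 ± 0.529 and 2.84 ± 0.0704 FPKM (0.24 ± 0.13, limma adjusted p = 0.273). SLC36A4 (PAT4), a carrier of proline and tryptophan, stood at 0.953 ± 0.093 and 1.26 ± 0.0814 FPKM without overlap (0.28 ± 0.12, limma adjusted p = 0.168), and was called in voom (adjusted p = 0.0276). SLC38A9, the lysosomal arginine sensor, stood at 1.83 ± 0.19 and 1.91 ± 0.0762 FPKM, and SLC38A7, the lysosomal glutamine exporter, at 3.25 ± 0.704 and 3.56 ± 0.0227 FPKM (limma adjusted p = 0.768 and 0.528). SLC38A6 stood at 2.17 ± 0.312 and 2.38 ± 0.182 FPKM (limma adjusted p = 0.536).

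SLC38A10 was the most abundant gene among these and measured 24.6, 19.5 and 19.7 FPKM in the controls and 17.5, 16.7 and 16.9 FPKM with fatty acid. All treated libraries were below all controls, and control replicate 1 was the highest. The difference of -0.30 ± 0.09 missed the threshold (limma adjusted p = 0.0695). It passed without control replicate 1 (limma adjusted p = 0.0494), with a filter of 2 FPKM (0.0447), with median-of-ratios scaling (0.0397), with quantile normalization (0.0351) and in voom (0.00927). SLC43A3, which carries purine bases and fatty acids and not amino acids, measured 8.1, 7.48 and 6.03 FPKM against 8.79, 7.31 and 7.62 FPKM (0.13 ± 0.12, limma adjusted p = 0.482).

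**Figure D4:**
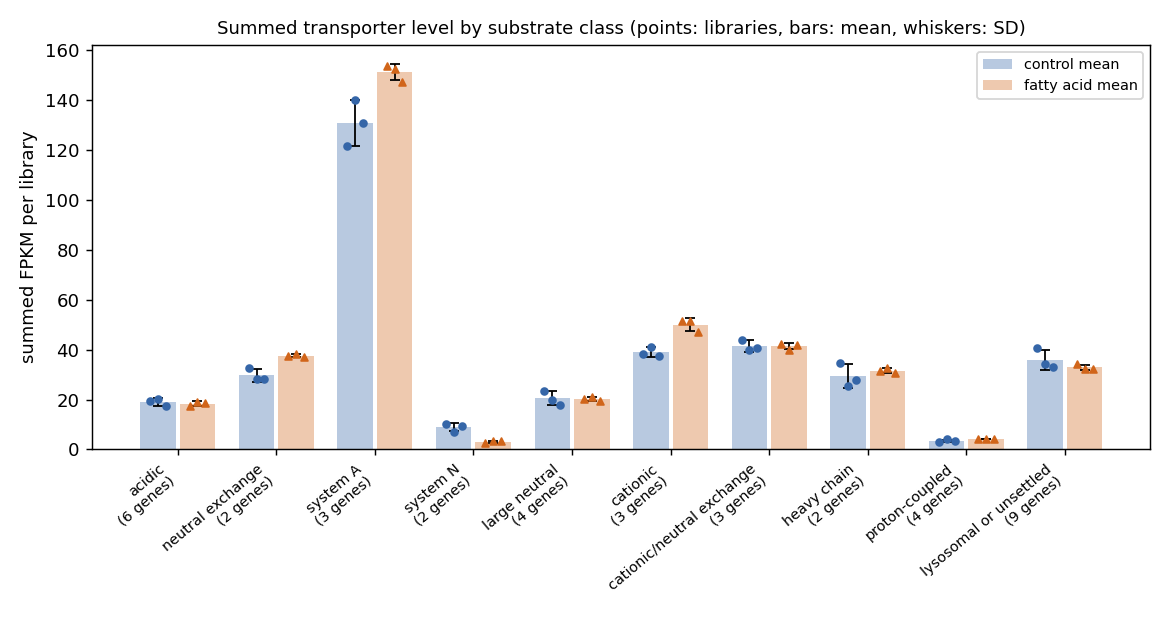
Summed FPKM of each substrate class per library (points), with the mean (bar, from 0) and SD (whisker) of 3 libraries per group. The class of SLC7A10 alone, listed at 0, is not drawn. System A, neutral exchange, cationic and proton-coupled carriers stand higher with fatty acid (ratios 1.16, 1.27, 1.29 and 1.24), system N stands at 0.33 of the control, and the cationic and neutral exchangers are level at 41.4 FPKM.

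Over all 39 genes the summed level was 357.9 ± 11.5 FPKM in the controls and 390.6 ± 7.4 FPKM with fatty acid, a ratio of 1.09. Neither this sum nor those of the single classes were tested. All sums were taken in FPKM as deposited. The FPKM of all genes together came to 352692 to 373401 in the controls and 319441 to 345001 with fatty acid. The ratios of the sums, and the direction of those near 1, therefore depend on the scaling, and sums rescaled to TPM were not computed. The 15 genes below the filter had means of 0 to 0.469 FPKM. Of these, SLC38A11 had 35 reads in the controls and 23 with fatty acid, a depth-adjusted ratio of 0.461 (95% exact interval 0.26 to 0.802), and SLC36A2 had 10 and 18, a ratio of 1.26 (0.552 to 3.06). SLC7A4 had 2 reads in all. SLC7A10, SLC7A13, SLC7A14, SLC36A3 and SLC38A8 were listed at 0 in every library, where 3 reads over all libraries would stand for 0.00436 to 0.0251 FPKM.

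Genes of the wider amino acid programme were read from the same fit. Of 24 genes of the amino acid response, among them ATF4, its upstream kinase EIF2AK4 and ATF4 targets, 19 were tested and 10 were called higher and none lower (8.22% and 4.68% over all genes tested), with a median log2 fold change of 0.31 against 0.04 over all genes. PSAT1, of serine synthesis, rose from 37 ± 0.537 to 65.9 ± 4.46 FPKM (0.82 ± 0.06, limma adjusted p = 0.000316), and SLC7A11, the cystine carrier, from 2.42 ± 0.0634 to 5.64 ± 0.586 FPKM (1.07 ± 0.09, 0.000571). TRIB3, an ATF4 target that inhibits AKT, rose from 6.05 ± 0.954 to 10.3 ± 0.853 FPKM (0.73 ± 0.11, limma adjusted p = 0.00907), and asparagine synthetase, ASNS, from 6.59 ± 1.23 to 12 ± 2.01 FPKM (0.82 ± 0.15, 0.0152). The other 9 tested genes of the list were not called. Among these, DDIT3 stood at 10.6 ± 1.52 and 10.9 ± 0.695 FPKM (0.05 ± 0.10, limma adjusted p = 0.792). ATF5 (-0.04 ± 0.11, limma adjusted p = 0.862) and NUPR1 (0.06 ± 0.09, limma adjusted p = 0.716) were also near level. ATF4 itself, named here after its value was seen, rose from 76 ± 5.74 to 90.7 ± 2.41 FPKM (0.26 ± 0.06, limma adjusted p = 0.0392). Its call was lost without control replicate 2 (limma adjusted p = 0.0824) or 3 (0.09), without any 1 fatty acid library (0.116, 0.145 and 0.0958 for replicates 1, 2 and 3), when low genes were not filtered (0.0844), without the intensity trend (0.0912) and with the replicate block (0.0622). Leaving out fatty acid replicate 1 or 2 brought the count to 2, when TRIB3 (limma adjusted p = 0.0528 and 0.0508) and ASNS (0.0563 and 0.057) were lost, and it was 6 when low genes were not filtered.

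Of 14 enzymes that use glutamine, alanine or arginine, 12 were tested, 3 were higher and 3 lower (8.22% and 4.68% over all genes tested). ARG1, the arginase of the urea cycle, fell from 14.6 ± 2 to 4.92 ± 0.566 FPKM (-1.48 ± 0.11, limma adjusted p = 0.000403). GPT, the cytosolic alanine aminotransferase, fell from 6.34 ± 0.862 to 3.23 ± 0.539 FPKM (-0.88 ± 0.13, limma adjusted p = 0.00815). GLUD1, glutamate dehydrogenase, fell from 54.6 ± 3.09 to 41.3 ± 1.11 FPKM (-0.40 ± 0.06, limma adjusted p = 0.00647). These 3 calls stood under all 16 alternatives. Among the 3 that rose were ASNS and GPT2, both also counted in the amino acid response. The 6 calls in this list became 3 when fatty acid replicate 1 or 2 was left out, and 4 when control replicate 3 or fatty acid replicate 3 was.

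Of 23 other amino acid transporters, SLC7A11 and genes of other families, 10 were tested and 2 were higher (8.22% over all genes tested), with a median of -0.02. They were SLC7A11 and SLC6A6, the taurine carrier, which went from 5.12 ± 0.211 to 6.62 ± 0.116 FPKM (0.34 ± 0.06, limma adjusted p = 0.0171). The SLC6A6 call was lost without control replicate 3 (limma adjusted p = 0.0528) or without fatty acid replicate 1 (0.0829), 2 (0.0721) or 3 (0.0589). Of 38 genes of lysosomal amino acid sensing and mTORC1 control, 37 were tested and 5 were higher (8.22% over all genes tested), with a median of -0.05. The 4 with the smallest p were MIOS of the GATOR2 complex (4.88 ± 0.229 to 6.04 ± 0.155 FPKM, limma adjusted p = 0.0354), the S-adenosylmethionine sensor BMT2 (2.87 ± 0.272 to 3.81 ± 0.164, 0.04), and the folliculin partners FNIP2 (3.66 ± 0.533 to 4.97 ± 0.256, 0.0435) and FNIP1 (5.11 ± 0.15 to 6.17 ± 0.2, 0.0452). The count for this list was 0 in limma without control replicate 3 or any 1 fatty acid library, where 10, 9, 6 and 9 genes had an unadjusted p under 0.05, and 2 and 3 without control replicate 1 or 2. It was also 0 in limma when low genes were not filtered, with median-of-ratios scaling, with quantile normalization and without the intensity trend (12, 17, 17 and 12 genes at an unadjusted p under 0.05).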

How the data were processed

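A single table of FPKM values for the 6 libraries was deposited by the authors, with gene identifier, symbol, type, position, strand and length, per the file headers. STAR 2.5.2, featureCounts and Subread 1.5.1 with GRCh38 are named in the submitters' processing notes, and libraries were stranded mRNA libraries from 100 ng of RNA, per the labels' protocols. The strand setting of the counting and the annotation release are not given in the sources used here. Overlapping antisense genes may therefore share reads. FPKM divides by the library total, so each value depends on all other genes.

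FPKM times length gave whole reads (tolerance 0.02) for 99.99% to 100% of values, which supplied depth and counts. The test was limma 3.58.1 (R 4.3.3) with an intensity trend on log2(FPKM + 0.5), no covariates, on genes averaging 0.5 FPKM or more, Benjamini-Hochberg adjusted. Replicates differed by more than sampling noise in every pair. On simulated data with 200 changed genes of 14661, 66% at 1.5-fold, 75% at 2-fold and 78% at 4-fold were recovered, and 10 of 157 calls were false. The simulation gave every gene the same dispersion, so these rates need not hold for the data.

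Members and lists were chosen with earlier results of these data known. Named are all members, with values per library where called or at a mean of at least 5 FPKM, and up to 4 called genes of smallest p per list. Some uncalled genes of the amino acid response were named after their values were seen. Locations outside the table came from GENCODE release 29 and promoters from RefSeq (GRCh38.p14), and 5 list genes were matched by older symbols. Alternatives changed the pseudocount (0.1, 1), filter, scaling, trend, replicate block, method (voom) and libraries. The exact intervals on read ratios cover counting error only, and those on log2 fold changes come from limma's variance between libraries.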

Additional observations from a re-analysis of the deposited data

How the results depend on the processing

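The 7 higher and 2 lower transporters became 5 and 1 with no filter, 6 and 1 without the intensity trend, 8 and 1 after rescaling to TPM, 7 and 3 under both median-of-ratios scaling and quantile normalization, and 9 and 3 in voom on recovered reads. With 1 library left out they ranged from 2 to 7 and from 1 to 2. Over all genes, 1205 were higher and 686 lower. These became 640 and 337 with no filter, 779 and 818 with median-of-ratios scaling, 767 and 768 with quantile normalization, 2615 and 412 after rescaling to TPM, 642 and 459 without the trend, and 1846 and 1153 in voom, and 230 to 1105 and 232 to 677 with 1 library left out. The share of calls that were higher was 63.7%, 48.8% with median-of-ratios scaling and 86.4% after rescaling to TPM. TPM moved the median of all genes from 0.04 to 0.16 and that of the transporters from 0.13 to 0.26. With no filter 28422 genes were tested, and a left-out library leaves fewer samples. The cause of these changes was not tested.

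Same-numbered libraries deviated together with r of 0.012, 0.084 and 0.022, so the numbers were not taken as pairs. With the replicate block, 6 transporters were higher and 2 lower, SLC1A4 being lost (limma adjusted p = 0.0547), and 817 and 657 of all genes. The 10 called genes of the amino acid response were 6 with no filter and 2 to 13 with 1 library left out. The 6 called enzymes ranged from 3 to 6 and the 2 other transporters from 1 to 2, and the latter were 3 after rescaling to TPM, without the trend and in voom. The 5 called genes of lysosomal sensing were 0 in limma with no filter, median-of-ratios scaling, quantile normalization or no trend (12, 17, 17 and 12 at an unadjusted p under 0.05), 1 with the replicate block, 8 in voom and 0 to 3 with 1 library left out. Signs turned for 3 uncalled genes near 0. SLC7A6 was -0.0039 with median-of-ratios scaling, SLC7A7 was -0.04 with median-of-ratios scaling and with quantile normalization, -0.0026 in voom and -0.03 to 0.06 with 1 library left out, and SLC38A9 was -0.01 to 0.11 with 1 library left out. The 15 transporters below the filter were not tested.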
